A study of Mus musculus with 20 samples.

Results

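Fc receptors, the Tyrobp and Fcer1g adaptors, the Trem receptors and the kinase Syk were followed on 20 one-colour Agilent arrays of whole mouse trachea, as every non-control probe whose gene name was Fcgr1, Fcgr2b, Fcgr3, Fcgr4, Fcer1g, Tyrobp, Trem1, Trem2, Trem3 or Syk. These 10 genes had 17 probes of the 41174 on the array. Neither Fcgr4 nor its older name Fcrl3 was a gene name on the array, and the single Fcgr4 probe was found by its transcript accession under the array name Fcgr3a. A probe was tested when the scanner software classed it well above background on at least 10 of 20 arrays, as were 26063 probes. Of the set, 14 probes of 8 genes were tested, 13 of them well above background on all 20 arrays and the second Fcgr1 probe on 19, whereas both Trem1 probes and the Trem3 probe reached that class on only 7 or 8 arrays.

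There were 4 groups of 5 arrays, from mice labelled as 4 month old, the wild-type ones as strain C57/Bl6 and the others as Myd88 KO. WT-control was uninjured wild-type trachea and KO-control was uninjured trachea of mice lacking Myd88, the adaptor that carries signals from most Toll-like receptors and from the interleukin-1 receptor family. WT-injury and KO-injury were tracheas of the same genotypes taken 3 days after 2% polidocanol, a detergent that strips the airway epithelium. Per the study's methods the knockout line was backcrossed to C57/Bl6JOlaHsd, then bred knockout to knockout and kept apart from the wild-type colony, so genotype and colony cannot be told apart. The study's methods call the 5 samples of a group biological replicates and name both sexes, but the labels give no sex per animal.

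Fc receptors bind the constant part of antibodies. Fcgr1, Fcgr3 and Fcgr4 are activating receptors for immunoglobulin G that need the common gamma chain, encoded by Fcer1g, to reach the surface and to signal, whereas Fcgr2b carries its own inhibitory motif and dampens the activating members. Trem1, Trem2 and Trem3 are surface receptors of myeloid cells without a signalling tail, and they pair with DAP12, the product of Tyrobp. Both adaptors carry the tyrosine motif that Src family kinases phosphorylate and that then recruits and activates Syk. In the airway the set is known mainly from macrophages, monocytes, neutrophils and mast cells rather than from epithelium.

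Promoters were read to show what lies at the starts of genes that changed together. RefSeq promoters of build GRCm38.p6 were at hand for 8 of the 10 genes, with 10 starts in all, and none was found for Tyrobp or Trem3. Each sequence covered 250 bases before and 50 bases after the start. They were searched for GAGGAA, the core bound by the myeloid factor PU.1, on both strands (TTCCTC on the other strand), and for TTCNNNGAA, the core bound by STAT factors, which reads the same on both strands. The PU.1 core was in 7 of the 10 promoters and the STAT core in 2, against 28.3% and 8.3% of all 32851 promoters of that length. The windows of the 2 Fcgr3 starts overlap and share 1 PU.1 core, which counts in both. The 200 bases before the start are printed 5′ to 3′ along the gene for 5 receptors, the activating Fcgr1, Fcgr3 and Fcgr4, and Trem1 and Trem2, because both cores or the PU.1 core lay there, and for the inhibitory Fcgr2b, where neither core was found. Fcer1g and the first Syk start also held neither core, and the second Syk start held a PU.1 core. These are not printed. Capitals mark the matches. Fcgr1 is at chr3:96293970-96294169 on the minus strand, Fcgr3 (the first of its 2 starts) at chr1:171059404-171059603 on the minus strand, Fcgr4 at chr1:171018726-171018925 on the plus strand and Fcgr2b at chr1:170976072-170976271 on the minus strand. Trem1 is at chr17:48232539-48232738 and Trem2 at chr17:48346201-48346400, both on the plus strand.
Fcgr1: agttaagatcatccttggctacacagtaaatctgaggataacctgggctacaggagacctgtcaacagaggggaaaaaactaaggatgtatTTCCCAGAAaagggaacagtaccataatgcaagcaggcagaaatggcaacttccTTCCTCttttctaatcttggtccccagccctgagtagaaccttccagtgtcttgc
Fcgr3: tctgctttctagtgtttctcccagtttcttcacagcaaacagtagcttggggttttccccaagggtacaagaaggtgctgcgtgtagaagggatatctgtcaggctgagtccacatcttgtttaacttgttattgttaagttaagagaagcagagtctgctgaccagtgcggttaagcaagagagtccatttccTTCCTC
Fcgr4: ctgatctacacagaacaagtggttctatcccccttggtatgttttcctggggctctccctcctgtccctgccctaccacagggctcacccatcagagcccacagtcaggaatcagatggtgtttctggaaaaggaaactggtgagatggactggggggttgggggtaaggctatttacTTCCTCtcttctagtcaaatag
Fcgr2b: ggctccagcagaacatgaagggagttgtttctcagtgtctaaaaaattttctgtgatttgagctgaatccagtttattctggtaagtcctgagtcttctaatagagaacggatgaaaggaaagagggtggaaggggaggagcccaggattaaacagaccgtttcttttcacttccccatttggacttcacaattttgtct
Trem1: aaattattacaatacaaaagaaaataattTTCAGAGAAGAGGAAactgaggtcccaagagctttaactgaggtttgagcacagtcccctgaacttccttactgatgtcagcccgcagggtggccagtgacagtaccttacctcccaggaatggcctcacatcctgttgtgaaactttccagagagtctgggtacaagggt
Trem2: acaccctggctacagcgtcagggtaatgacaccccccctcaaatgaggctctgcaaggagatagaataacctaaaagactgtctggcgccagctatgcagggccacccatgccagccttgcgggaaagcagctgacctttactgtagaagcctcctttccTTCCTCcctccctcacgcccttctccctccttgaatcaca
In Fcgr1, Fcgr3, Fcgr4 and Trem2 the PU.1 core was on the opposite strand, with its first printed base at -55, -6, -22 and -40 relative to the start. Fcgr1 also held a STAT core at -109, and in Trem1 the STAT core at -171 and the PU.1 core at -162 adjoined each other without overlap. These matches describe letters only, and no binding was measured.

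The scanner software classed between 57.5% and 67.8% of spots as well above background, and arrays of a group correlated with each other at 0.925 to 0.990 over all probes. The lowest of these shares and the most outlier spots (192, against 69 to 113 elsewhere) belonged to KO-injury replicate 5, an array that also read low for the set, so the results of KO-injury are given with and without it where the array results are described. File headers showed that all 4 arrays of one replicate number shared a slide, and that replicates 2, 3 and 4 were scanned on one day and replicates 1 and 5 on another. The Myd88 probe read 0.21 lower in uninjured Myd88KO than in wild-type on the log2 scale (limma, adjusted p = 1.00) and 0.77 lower after injury (adjusted p = 0.00824). Whether this probe lies in the deleted part is not given in the sources used here, so it does not check the labels. Levels below are log2 intensities minus the 75th percentile of the array, so that 0 is a bright spot at that percentile, and levels of different probes are not compared. In whole trachea, more cells of a type and more RNA per cell cannot be told apart.

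The first question was whether the set changed after injury in wild-type trachea, and all of its tested genes rose. All 14 probes of the 8 genes were higher in WT-injury and passed the test (adjusted p under 0.01), where 3.24% of all tested probes were called higher, 2.03% lower and 5.26% in either direction. The differences ran from 1.86 for Syk to 3.75 for the second Trem2 probe on the log2 scale, which is 3.64- to 13.5-fold, with a median of 2.49 beside a median of 5.9e-05 over all probes. On each of the 14 probes every WT-injury array lay above every WT-control array, as on 7.89% of all probes. Fcgr1, Fcgr4 and Trem2 rose most, and Syk and the 3 Fcgr2b probes least. The test was limma over all 20 arrays with Benjamini-Hochberg adjustment within the comparison. Dropping single arrays left between 8 and 14 of the 14 calls. The fewest remained without WT-control replicate 4 or WT-injury replicate 1 (8 each), and 9 remained without WT-control replicate 2 or 5 or WT-injury replicate 2 or 5, with Fcgr2b and Syk the most often lost. The 8 probes called whichever single array was left out were both probes of Fcgr1, Fcer1g and Trem2, the Fcgr4 probe and the first Fcgr3 probe.

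**Figure D1:**
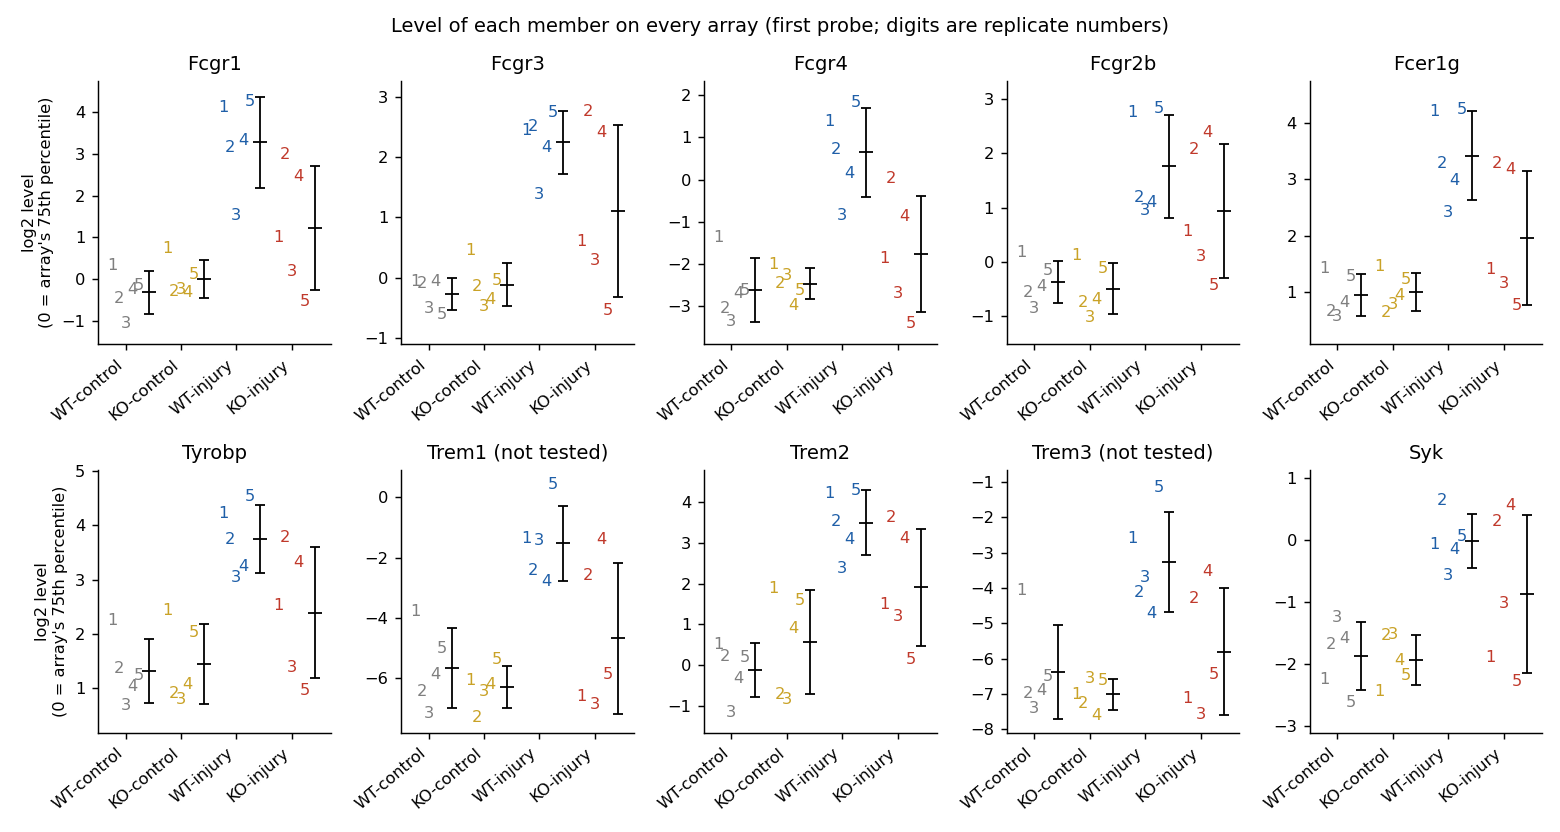
Log2 level (0 is the 75th percentile of the array) of the first probe of each of the 10 genes, 1 panel per gene, with each array drawn as its replicate number and the group mean ± SD (n = 5) beside it. For the 8 tested genes every WT-injury array lies above every WT-control array, whereas KO-injury replicates 2 and 4 lie high and replicate 5 lies lowest.

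Fcgr1 encodes the high-affinity receptor for immunoglobulin G and is a marker of monocytes and macrophages. Its first probe read 0.33, -0.46, -1.06, -0.25 and -0.16 in WT-control replicates 1 to 5 and 4.12, 3.16, 1.53, 3.33 and 4.25 in WT-injury. All 5 injured wild-type arrays were high, and replicate 3 was the lowest of them. The difference was 3.60 ± 0.57 (SE), or 12.1-fold, with an adjusted p of 0.000791. The second Fcgr1 probe, which was dim in uninjured trachea, gave 3.67 ± 0.59 (adjusted p = 0.000822). In KO-injury the first probe read 1.00, 2.99, 0.18, 2.45 and -0.54 against -0.33 to 0.74 in KO-control. Only 3 of the 5 injured knockout arrays exceeded all uninjured ones, and the groups overlapped. The difference in Myd88KO was 1.22 ± 0.57 (adjusted p = 0.247).

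Fcgr4 encodes an activating receptor of intermediate affinity carried by monocytes, macrophages and neutrophils. Its probe read -1.38, -3.06, -3.38, -2.72 and -2.65 in WT-control and 1.38, 0.72, -0.86, 0.13 and 1.84 in WT-injury. The groups did not overlap, and WT-control replicate 1 came closest to the injured arrays. The difference was 3.28 ± 0.56, or 9.74-fold (adjusted p = 0.00127). KO-injury arrays read -1.89, 0.02, -2.71, -0.87 and -3.42 against -3.01 to -2.03 in KO-control. Of all tested probes of the set, Fcgr4 had the smallest difference in Myd88KO, 0.71 ± 0.56 (adjusted p = 0.526), which was 1.12 without KO-injury replicate 5 and 0.26 without replicate 2. It also had the largest difference between injured genotypes, 2.42 lower in KO-injury (adjusted p = 0.0552).

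Fcgr3 encodes the low-affinity activating receptor. On its first probe WT-control ran from -0.61 to -0.06 and WT-injury from 1.37 to 2.73, a difference of 2.51 ± 0.46 (adjusted p = 0.00202). The second probe gave 2.44 ± 0.51 (adjusted p = 0.00427). The inhibitory receptor Fcgr2b had 3 probes, 1 of them printed 10 times on the array. Its first probe read from -0.86 to 0.17 in WT-control (median -0.46) and from 0.94 to 2.84 in WT-injury (median 1.18). Replicates 1 and 5 of WT-injury stood above the other 3. The 3 probes rose by 2.06 to 2.26, with adjusted p from 0.00647 to 0.00864. With the replicate number as a block, 12 of the 14 probes of the set passed, and Fcgr2b probes 2 and 3 did not (adjusted p = 0.0102 and 0.0120). KO-injury arrays read 0.57, 2.08, 0.11, 2.39 and -0.44 on the first Fcgr2b probe. Fcgr2b and Fcgr3 have similar extracellular parts, and whether their probes are distinct in sequence was not tested, because probe sequences were not used here.

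Fcer1g and Tyrobp are the adaptors that most of these receptors share. Tyrobp read 2.26, 1.36, 0.68, 1.04 and 1.23 in WT-control and 4.22, 3.73, 3.05, 3.25 and 4.52 in WT-injury. Its brightest uninjured array, replicate 1, lay below the dimmest injured one, replicate 3. The difference was 2.44 ± 0.48, or 5.43-fold (adjusted p = 0.00309). KO-injury arrays read 2.53, 3.77, 1.39, 3.32 and 0.96, of which only replicates 1, 2 and 4 exceeded the highest KO-control array, 2.43. Fcer1g rose by 2.48 ± 0.44 on the first probe (adjusted p = 0.00167) and by 2.50 ± 0.46 on the second (adjusted p = 0.00196). Its first probe ran from 0.57 to 1.41 in WT-control, from 2.41 to 4.25 in WT-injury and from 0.76 to 3.28 in KO-injury.

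Trem2 encodes a lipid-sensing receptor of macrophages and microglia. Its first probe read 0.50, 0.22, -1.17, -0.32 and 0.19 in WT-control and 4.20, 3.51, 2.38, 3.08 and 4.29 in WT-injury. The probes rose by 3.61 ± 0.64 and 3.75 ± 0.63, or 12.2- and 13.5-fold (adjusted p = 0.00146 and 0.00111). Uninjured Myd88KO arrays were more spread than wild-type ones on this probe, at 1.88, -0.72, -0.86, 0.89 and 1.59, and KO-injury read 1.47, 3.63, 1.19, 3.10 and 0.12. Replicates 1, 4 and 5 of KO-control lay above every WT-control array, and replicates 2 and 3 lay within the WT-control range.

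Trem1 amplifies Toll-like receptor responses in neutrophils and monocytes, and Trem3 is a related mouse receptor that also pairs with DAP12. Neither gene was tested with the set, since both were near background on most uninjured arrays and on most KO-injury arrays. The second Trem1 probe was well above background on none of 5 WT-control arrays and on all 5 WT-injury arrays, where it read -3.18, -2.65, -2.52, -4.04 and -0.92. It was at least 4.47-fold higher after injury, the bright group's mean set against the lowest signal of probes well above background on each WT-control array. The first Trem1 probe and the Trem3 probe were well above background on 1 WT-control array and on all 5 WT-injury arrays. When no probe was filtered out, limma gave adjusted p of 0.00888 and 0.00383 for the Trem1 probes and 0.0185 for Trem3. In KO-injury all 3 probes were well above background on replicates 2 and 4 only, and in KO-control on none.

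Syk, the kinase downstream of both adaptors, rose least. It read -2.25, -1.69, -1.24, -1.58 and -2.62 in WT-control and -0.07, 0.64, -0.56, -0.15 and 0.06 in WT-injury. All WT-injury arrays lay above all WT-control arrays, and the difference was 1.86 ± 0.44, or 3.64-fold (adjusted p = 0.00945). When no probe was filtered out, Syk (adjusted p = 0.0145) and 2 of the 3 Fcgr2b probes (0.0111 and 0.0129) no longer passed.

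**Figure D2:**
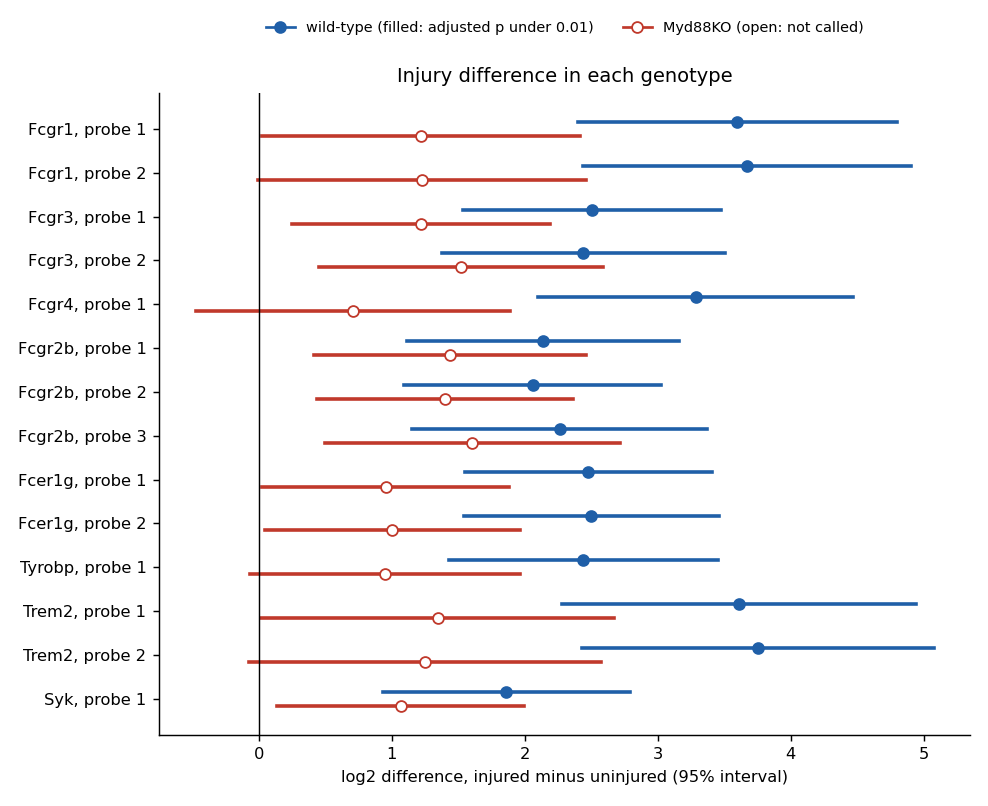
Log2 difference between injured and uninjured trachea (x axis) for the 14 tested probes (y axis) in wild-type and Myd88KO, as points with 95% intervals from limma, filled where adjusted p was under 0.01. Wild-type differences lie between 1.86 and 3.75 and are all called, and Myd88KO differences lie between 0.71 and 1.61 and none is called.

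The same question in Myd88KO trachea gave no call. All 14 differences were positive, from 0.71 to 1.61, with a median of 1.22 beside -0.07 over all probes. None passed the test in limma (adjusted p = 0.0989 to 0.526), where 0.134% of all tested probes were called higher. The count at an unadjusted p under 0.05 was 10 of 14, beside 19.5% of all probes, and the one-way test named in the study's methods also called none. The limma p rest on a spread shared by all groups, which for these probes is smaller than that of KO-injury alone. The Fcgr2b probes gave 1.44, 1.40 and 1.61 and the second Fcgr3 probe 1.52, and Fcgr4 gave the smallest difference. The Myd88KO difference as a percent of the wild-type one was 21.6% for Fcgr4, 33.4% to 34.0% for Fcgr1, 38.9% for Tyrobp, 57.4% for Syk and 67.3% to 71.0% for Fcgr2b. These shares depended on single arrays: without KO-injury replicate 5 they were 34.1% for Fcgr4, 46.1% and 48.4% for Fcgr1, 53.6% for Tyrobp, 76.4% for Syk and 83.5% to 92.3% for Fcgr2b, and without replicate 2 they ran from 7.92% for Fcgr4 to 54.8% for the third Fcgr2b probe. On no probe did the Myd88KO groups separate, as 1.15% of all probes did upward.

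On these probes the arrays of KO-injury differed from each other more than those of any other group, with the largest of the 4 SDs on each of the 17. How often that held over all probes was not counted, so it is not shown to be particular to the set. Measured from the mean of the 5 KO-control arrays, the median change over the 14 probes was 0.79, 2.73, 0.51, 2.53 and -0.41 in replicates 1 to 5. On replicates 2 and 4 all 14 probes lay above every KO-control array, with changes of 2.24 to 3.23 and 1.61 to 3.33. On replicate 1 that held for 9 probes, on replicate 3 for 4, and on replicate 5 for none, where 5 probes lay below every KO-control array. In WT-injury the medians were 3.19, 2.56, 1.56, 2.13 and 3.26, replicate 3 was the lowest on all 14 probes, and all 14 lay above every WT-control array on each of the 5 arrays. Between the scan days the Myd88KO difference had a median of 2.24 in replicates 2, 3 and 4 and of -0.22 in replicates 1 and 5, whereas in wild-type the medians were 2.25 and 2.94. Without KO-injury replicate 5 the Myd88KO differences ran from 1.12 to 2.09 with a median of 1.68 (1.66 for the first Fcgr1 probe and 1.31 for Tyrobp), and 2 of 14 probes passed, the third Fcgr2b probe (2.09, adjusted p = 0.00819) and the second Fcgr3 probe (2.00, adjusted p = 0.00729), beside 4.12% of all probes called in either direction.

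**Figure D3:**
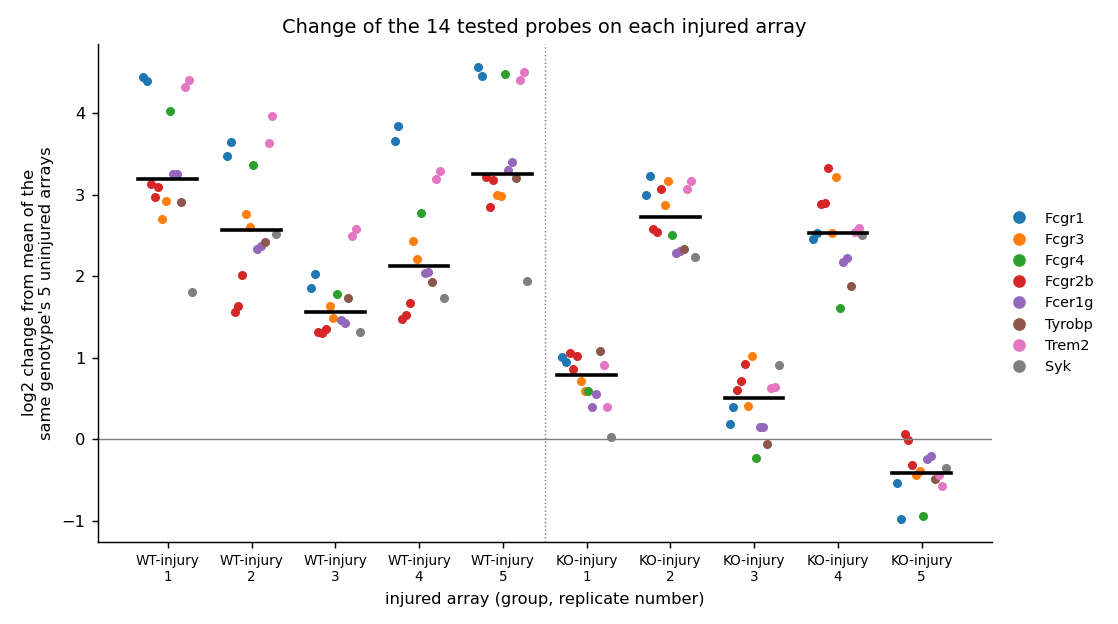
Log2 change (y axis) of each of the 14 tested probes on the 10 injured arrays (x axis), taken from the mean of the 5 uninjured arrays of the same genotype, with a bar at the median of the probes. The WT-injury arrays have medians of 1.56 to 3.26, whereas KO-injury replicates 2 and 4 are at 2.73 and 2.53 and replicate 5 is at -0.41.

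Uninjured genotypes were compared to ask whether the set differed before injury. No probe passed the test (limma, adjusted p = 1.00 for each), none had an unadjusted p under 0.05 beside 5.59% of all probes, and 0.384% of all probes were called in either direction (0.196% lower). On no probe did these groups separate, as 1.71% of all probes did upward and 0.802% downward. The differences, Myd88KO minus wild-type, ran from -0.18 for the third Fcgr2b probe to 0.86 for the second Trem2 probe, with a median of 0.09. The Trem2 probes had the widest intervals, -0.65 to 2.01 and -0.46 to 2.18. For Tyrobp the 95% interval ran from -0.88 to 1.14. In uninjured trachea the mean level of the set differed between the scan days. The mean of replicates 1 and 5 was above that of replicates 2, 3 and 4 on 11 of 14 probes in WT-control and 13 of 14 in KO-control. The median shifts were 0.65 and 0.68. Syk went the other way, by -0.93 and -0.65. The 2 replicates of that day did not read alike in wild-type. In WT-control replicate 1 was the highest array on 12 probes, whereas replicate 5 was highest on 0 and lowest on 3. In KO-control replicate 1 was highest on 13 probes and replicate 5 among the top 2 on 11. The part of the scan day or of single arrays in these shifts was not tested.

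Between injured genotypes the set was lower in Myd88KO on all 14 probes, by 0.75 to 2.42, but no probe passed the test in limma, where 0.23% of all probes were called lower and 0.15% higher. The groups overlapped on all 14 probes, and 1.26% of all probes separated downward. Adjusted p ran from 0.0552 for Fcgr4 to 0.547 for the third Fcgr2b probe, and 9 of 14 had an unadjusted p under 0.05 beside 12.5% of all probes. Fcgr1 was lower by 2.06 ± 0.57 and 2.15 ± 0.59 on its 2 probes (adjusted p = 0.121 and 0.115). Without KO-injury replicate 2 the Fcgr4 probe passed (-2.87, adjusted p = 0.00873), and without KO-injury replicate 5 it read -2.01 (adjusted p = 0.161) and the median of the 14 differences moved from -1.42 to -1.07. Within replicates 2, 3 and 4 the median difference was -0.32 and 4 of 14 probes were higher in KO-injury, whereas within replicates 1 and 5 it was -3.04 and none was.

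Whether injury acted differently by genotype was tested directly as the difference between the 2 injury differences. All 14 estimates were negative, from -0.66 for the third Fcgr2b probe to -2.57 for Fcgr4, and none was called in limma (adjusted p = 0.391 to 0.773). No probe on the whole array was called (0%). At an unadjusted p under 0.05 there were 8 of 14, on Fcgr1, Fcgr4, Fcer1g, Tyrobp and Trem2, beside 10.4% of all probes. The 95% interval for Fcgr4 was -4.24 to -0.91 and that for Tyrobp -2.92 to -0.06. The Fcgr2b intervals, such as -2.15 to 0.75 on the first probe, held 0. Without KO-injury replicate 5 the median estimate was -1.16 instead of -1.49.

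Other genes of the pathway were taken from 6 lists of 104 genes, of which 101 were on the array and 86 were tested by their brightest probe. In wild-type 30 rose and 2 fell after injury, with a median difference of 0.91, beside 3.24% of all tested probes higher and 2.03% lower. In each of the other 4 comparisons none was called. There the share of all probes was also low: 0.376% after injury in Myd88KO, 0.384% and 0.38% between uninjured and injured genotypes, and 0% between injury responses. These absent calls therefore do not set the lists apart. Among receptors listed as partners of Tyrobp or Fcer1g, or as carrying a similar motif, 7 of 13 tested genes rose and 1 fell. Clec4e, the receptor Mincle, rose by 5.96 ± 1.01 and Clec4d, its partner, by 5.55 ± 1.19, although Clec4e was well above background on only 1 WT-control array. Sirpb1a rose by 3.96 ± 0.68, Clec4n (Dectin-2) by 3.82 ± 0.69 and Clec7a (Dectin-1) by 3.06 ± 0.66, and Treml4 and Pilrb1 by 2.32 and 1.93. Treml1, a receptor of platelets whose pairing with either adaptor was not checked here, fell by 1.53 ± 0.36.

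Of 13 tested inhibitory receptors 8 rose and none fell. Lilrb4 rose by 3.89 ± 0.85, Cd300lf by 3.85 ± 0.61, Pirb by 2.52 ± 0.51 (with 1 WT-injury array left out as an outlier spot), Sirpa, which binds CD47, by 1.53 ± 0.24, Cd33 by 1.53, Lair1 by 1.45 and Cd72 by 0.93. Cd300a rose by 2.95 on its brightest probe and read 0.16 (adjusted p = 0.745) on the other. Lilrb4 was well above background on 1 WT-control array. Of the kinases, adaptors and effectors around Syk, 11 of 35 rose and none fell, with a median of 0.46. They included the Src family kinases Fgr (3.35 ± 0.56) and Lyn (0.73 ± 0.16), the adaptors Lcp2 (2.30 ± 0.45) and Lat2 (2.09 ± 0.38), the exchange factor Vav1 (1.95), the kinase Btk (1.95), the GTPase Rac2 (2.11), the actin regulator Was (1.74), the phospholipase Plcg2 (0.97) and the lipid kinase subunit Pik3cd (on its brightest probe, with -0.09 on the other). Other probes of Lat2 (0.93), Lyn (0.81) and Sirpa (1.45) did not pass (adjusted p = 0.0297, 0.0492 and 0.0195), whereas Clec4a2, not called on its brightest probe (1.40), passed on the other (2.08, adjusted p = 0.00717).

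Negative regulators rose in 3 of 11 cases, the adaptor Dok3 (1.87 ± 0.37), the lipid phosphatase Inpp5d, also called SHIP1 (1.83 ± 0.30), and the tyrosine phosphatase Ptpn6 (1.12 ± 0.26, with -0.01 and 0.11 on its other probes). Of 9 ligands and shedding proteases only the chaperone Clu, which Trem2 binds, rose (1.06 ± 0.19), and Apoe read 0.92 ± 0.25 higher without passing (adjusted p = 0.0193). Of 5 other Fc receptors tested, none rose, and Fcamr, a receptor for immunoglobulins A and M, was at least 4.49-fold lower, well above background on 5 WT-control arrays and on no WT-injury array (adjusted p = 0.000106). Fcer1a, the mast cell receptor chain for immunoglobulin E that pairs with the gamma chain, read 0.29 ± 0.17 higher (adjusted p = 0.281), and Fcgrt and Pigr read 0.14 and -0.70. Their difference in response from Fcgr1 to Fcgr4 was not tested.

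**Figure D4:**
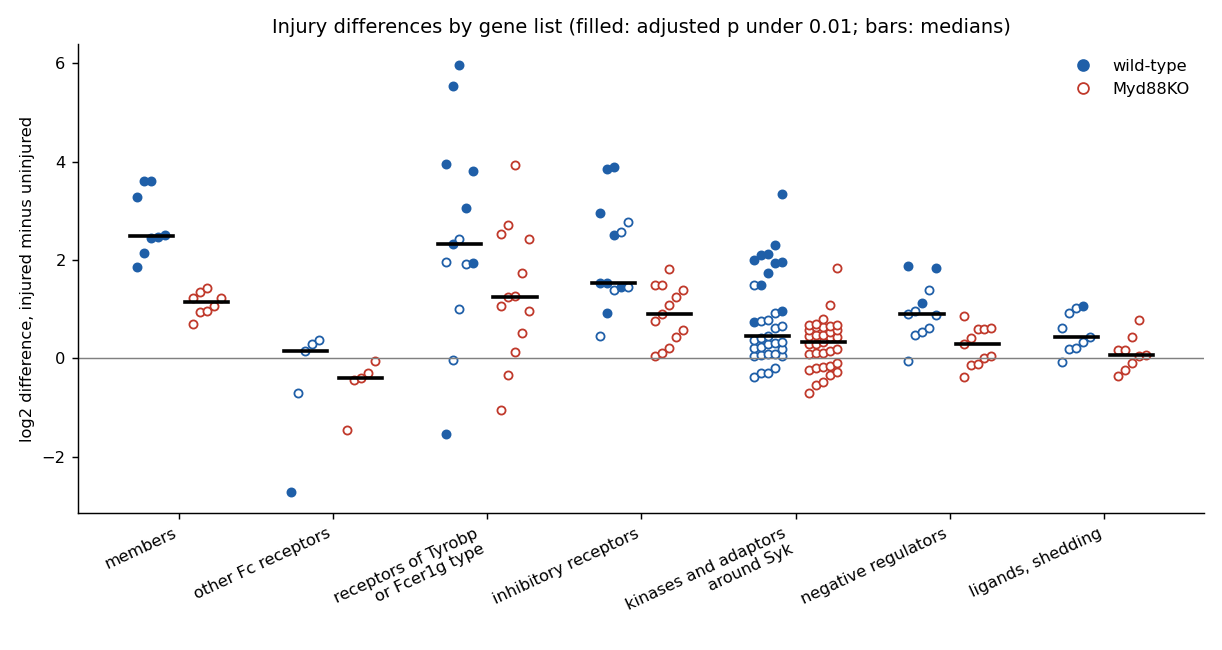
Log2 difference between injured and uninjured trachea (y axis) of each tested gene of the set and of the 6 pathway lists (x axis) in wild-type and Myd88KO, filled where adjusted p was under 0.01, with bars at list medians. In wild-type 30 of the 86 listed genes rose and 2 fell, beside 3.24% and 2.03% of all tested probes. In Myd88KO no gene of these lists was called, beside 0.376% of all tested probes.

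Some markers of cells that carry these receptors rose along with the set, and others did not pass. In wild-type 8 of 12 macrophage markers rose, led by Cd68 (3.27 ± 0.53) and Ms4a7 (2.32 ± 0.43), while Mrc1, Cx3cr1, Cd163 and Mertk read 1.32, 0.76, 0.55 and 0.32 higher without passing, with a median of 1.67 over the list beside 2.49 for the 14 probes of the set. Their summed level in units of the 75th percentile ran from 16.9 to 26.8 in WT-control, 42.1 to 108 in WT-injury and 16.9 to 31.3 in KO-control. In KO-injury it was 30.6, 67.7, 23.1, 62.5 and 18.8 in replicates 1 to 5, highest on the same 2 arrays, replicates 2 and 4, on which the set was highest. All 12 macrophage markers were well above background on every array.

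Neutrophil markers were dominated by Ltf, which held 60.4% to 99.9% of their summed level and which glands also secrete. Without it the other 10 on the array summed to 2.62 to 33.4 in WT-control, 0.468 to 2.45 in KO-control, 14.9 to 260.2 in WT-injury and 0.512 to 43.2 in KO-injury, again highest on KO-injury replicates 2 and 4. The summed ranges of the uninjured genotypes lay close without overlap (highest KO-control 2.45, lowest WT-control 2.62). This difference in sums was not tested, and how often other sums separate was not counted. Gene by gene, none of the 7 tested neutrophil markers was called between uninjured genotypes, beside 0.384% of all probes. Of the 7 tested, Csf3r rose (4.05 ± 0.83, well above background on 2 WT-control arrays), and Retnlg and S100a8 read 4.19 ± 1.03 and 3.90 ± 1.12 higher (adjusted p = 0.0117 and 0.0269). Retnlg was well above background on only 2 WT-control arrays, so its difference is measured partly against background. The remaining tested markers S100a9, Cxcr2, Mpo and Ltf read 2.8, 2.7, 0.29 and -0.03 in wild-type after injury, without passing. Ngp and Elane were well above background on no array. Of 5 monocyte markers 3 rose in wild-type, among them F10 (5.86, well above background on 1 WT-control array) and Chi3l3 (4.68 ± 0.80), and 4 of 7 markers shared by leukocytes did (Cd53, Itgb2, Laptm5 and Coro1a). Chi3l3 was also called in Myd88KO after injury (4.46 ± 0.80, adjusted p = 0.00829). No tested marker of mast cells (6), NK cells (5) or B cells (3) was called in wild-type, and of dendritic cell markers Itgax rose (1.58, with -0.71 on its other probe) and of T cell markers Cd247 fell (-1.18). Cd247 was also called lower in Myd88KO after injury (-1.68, limma adjusted p = 0.00426). As a check of the tissue, all 8 epithelial markers were well above background on every wild-type array. After injury in wild-type 3 of them were called lower, the club cell secretoglobin Scgb1a1 (-7.91), Scgb3a2 (-5.77) and Bpifa1 (-2.24). The other 5 were not called, with Krt5 at 0.34, Epcam at 0.10, Cdh1 at -0.11, Trp63 at -0.22 and Foxj1 at -0.41. In Myd88KO after injury Scgb1a1 (-6.24) and Bpifa1 (-2.36) were called lower (limma, adjusted p = 0.00069 and 0.00287), beside 0.242% of all tested probes. Each was well above background on 4 KO-injury arrays. Scgb3a2 read -3.37 without passing (adjusted p = 0.0326). The summed level of the 8 markers was 1049 to 1589 in KO-control and 223 to 659 in KO-injury, which was not tested. The part of these cell markers in the changes of the set was not tested.

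The tested genes of the set varied together. Over 20 arrays the 28 pairs of 8 genes had Pearson correlations of 0.73 to 0.98, and 0.33 to 0.97 with group means taken out (median 0.87), which is a description of arrays that share tissue and injury. The 10 genes most like Tyrobp over 20 arrays, of 17732 genes with a named or unnamed tested probe, included Snx20, Tnfaip8l2, Susd3, Ms4a7, Alox5ap, Coro1a, Cd300c2 and Tfec (r = 0.98 to 0.97) and 1 unnamed probe, which ranked second. Fcgr1, Trem2 and Fcer1g ranked 24, 26 and 29, and Syk ranked 1084 (r = 0.74). Within the 10 uninjured arrays the closest 10 included Thumpd2, Pcdhb22, Poglut3, Nme4, Irak1bp1, Tpst1, the same unnamed probe, Dse and Rcn3 (r = 0.98 to 0.96). There Fcgr2b ranked 203 (r = 0.91), Fcgr4 ranked 3350 (r = 0.66) and Syk correlated with Tyrobp at -0.74, on arrays that also differed by scan day as described above.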

How the data were processed

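Total RNA of whole trachea was labelled (600 ng per sample, per the labels) and hybridised to one-colour Agilent mouse arrays. Each array's unnormalised scanner file, written by Agilent Feature Extraction, was deposited by the authors, and its processed signal, a background-subtracted intensity, was used here. A value table also deposited held the same intensities (ratio 0.995 to 1.00). Control spots and outlier spots (1960 values) were left out and spots of a probe averaged. Log2 intensities minus the 75th percentile of each array were fitted with limma 3.58.1 (R 4.3.3), with 4 group means over 20 arrays, 5 contrasts, Benjamini-Hochberg adjustment within each over 26063 probes and calls at 0.01. Precision rests on 5 arrays per group. The fit gave each probe 1 spread shared by the 4 groups, so every SE, interval and p includes the wide KO-injury arrays. On the second Fcgr3 probe the SDs were 0.16 in WT-control, 0.23 in KO-control, 0.62 in WT-injury and 1.61 in KO-injury. Its SE was 0.51 in both injury comparisons and between uninjured genotypes. For that probe the shared spread is too small for KO-injury and too large for the uninjured groups. The fit was tested on simulated data. Alternatives changed the background correction, scaling, filter, outlier spots, block, array weights, value table or test, or left out 1 array.

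Replicate numbers pair the samples, since each number marks 1 of 5 slides in the file headers. Deviations from group means correlated at a median of 0.24 (-0.26 to 0.48, 30 pairs) within a number and -0.08 between numbers. The genes of the set, the lists and the tests were chosen with earlier results of these data known. Named were all probes of the set, list genes called in any contrast, the leading genes of each list in wild-type after injury (1 probe per gene, the brightest), the 10 genes most like Tyrobp and Myd88, except some that are not reported here. Names came from array symbols and accessions through RefSeq (GRCm38.p6). Array positions carry no stated build and are not printed.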

Additional observations from a re-analysis of the deposited data

Results flagged for a closer look

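Of 28 pairs of genes of the set, 3 changed in opposite proportion on injured arrays of the 2 genotypes. The ratio of a pair on each injured array was set against the mean ratio on the uninjured arrays of the same genotype, in log2, so that the scaling of an array cancels. Fcgr4 relative to Fcgr2b was above its uninjured mean on all 5 WT-injury arrays (0.89, 1.81, 0.47, 1.29 and 1.27) and below it on all 5 KO-injury arrays (from -1.28 in replicate 4 to -0.07 in replicate 2), with means of 1.15 ± 0.50 and -0.73 ± 0.47 (SD, n = 5). Replicates 2 and 4 of KO-injury, on which both genes were high, went the same way as the other 3. Fcgr4 relative to Fcgr3 (means 0.78 and -0.51) and Fcer1g relative to Fcgr2b (means 0.34 and -0.48) also ran above 0 on every WT-injury array and below 0 on every KO-injury array. The pairs were picked out after the values were seen and share genes, and the difference was not tested. How often pairs drawn from all tested probes do the same was not counted, so 3 of 28 is not shown to be unusual. With Fcgr2b probe 2 or 3 in place of the first the Fcgr4 pattern held on all 10 arrays, and with normexp background correction WT-injury replicate 3 read -0.01 while the other 9 kept their sign. In uninjured trachea the log2 ratio of the first Fcgr4 and Fcgr2b probes ran from -2.52 to -1.55 in WT-control (mean -2.26). In KO-control it ran from -2.5 to -1.26 (mean -1.98), so the genotypes overlapped. WT-injury replicate 3 and KO-injury replicates 1 and 2 lay within the uninjured range of their own genotype. The shifts from the uninjured means therefore do not separate every injured array from the uninjured ones.

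Of 68 groups of 5 arrays (17 probes, 4 groups), 2 held an array far from the rest by Dixon's ratio, where chance flags about 1 in 20. Both were the highest WT-control array, replicate 1, on the second Fcgr1 probe (-3.27) and on the Trem3 probe (-4.07).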

How the results depend on the processing

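The wild-type injury result kept its direction on all 14 probes under all alternatives run. With all arrays kept, 10 to 14 probes were called, the fewest under the adjusted one-way test, and with no filter 13 of 17 including both Trem1 probes. Leaving out 1 array at a time gave 8 to 14 calls in wild-type, 0 to 2 in Myd88KO, 0 to 1 between injured genotypes and 0 in the other 2 comparisons. With array weights 6 probes were called in Myd88KO after injury, the 3 Fcgr2b probes, both Fcgr3 probes and Syk, beside 7.31% of all probes. With the replicate block 12 of 14 probes passed in wild-type and 0 in each other comparison. It changed no other call of the set. No called difference changed sign. Uncalled ones did between uninjured genotypes, in 4 of 181 values with all arrays and 21 of 280 with 1 array left out, and once between injury responses (0.02 with array weights). The Fcgr4 to Fcgr2b ratio, KO-injury minus WT-injury, was -1.88 and ranged from -1.93 to -1.40 over 5 alternatives chosen after seeing the data. Signal near background limited Trem1 and Trem3.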
